A study of Bos taurus with 30 samples.

Results

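miR-455 is a microRNA gene that gives rise to a pair of mature products, listed as bta-miR-455-5p and bta-miR-455-3p, cut from the 5′ and the 3′ side of a single hairpin. Both arms were followed here in Holstein-Friesian bull calves, in the anterior pituitary, which makes and releases hormones that control growth, metabolism and reproduction. They are 2 of the 1030 mature bovine miRNAs in the table, and both were among the 419 that passed a filter on low counts. They were selected on their measured levels, both being higher in calves on the richer diet in these same libraries, so the difference between diets is given below as a description only. A total of 30 calves were studied, with 1 small RNA library per calf and 15 calves per diet. The diets began at 2 weeks of age. The high plane (HI) was 1.5 kg of milk replacer a day, made up to 10 litres, with unrestricted concentrate. The moderate plane (MOD) was 0.5 kg in 4 litres, with at most 0.5 kg of concentrate. All calves had hay and water, and tissue was taken at 12 weeks of age.

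A miRNA hairpin is trimmed to a short duplex, and either strand of that duplex can be loaded into an Argonaute protein, where it guides the silencing of mRNAs that match its seed. Both strands of miR-455 are known to accumulate, so each can regulate targets of its own. The gene lies in an intron of COL27A1, which encodes a fibrillar collagen of cartilage. miR-455 is best known from chondrocytes, where it is abundant and responds to TGF-beta signalling, and from brown fat, where it promotes differentiation. In the RefSeq annotation of the bovine assembly ARS-UCD2.0, which is another build than that used by the study, 1 gene is named MIR455. It lies inside COL27A1, between the neighbouring protein-coding genes KIF12 and ORM1, and 0 other miRNA genes lie inside COL27A1. Reads on either arm therefore have a single annotated source.

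The libraries held 6650492 to 11086524 reads on miRNAs. Levels are CPM, a miRNA's reads relative to the library's reads on all miRNAs with library sizes scaled by TMM (trimmed mean of M values), which is the unit of the deposited table. Each value was also turned back into whole reads. A count of 0 would allow up to 3 reads, which were worth 0.266 to 0.419 CPM, and neither arm came near that floor in any library. The miRNAs known from pituitary endocrine cells (miR-375, miR-7 and the miR-200 family) summed to 136048 to 232042 CPM per library. By earlier results on these data, 9 calves, those of the highest label numbers (5 HI, 4 MOD), differ from the other 21 (10 HI, 11 MOD) in many miRNAs, so results are also given within these label sets. In a bulk sample, a lower level of a miRNA from fewer cells of a type and from less of it per cell cannot be told apart.

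Both arms were expressed at a modest level in every calf. miR-455-5p averaged 31.3 ± 7.29 CPM (SD, n = 30), which placed it at rank 221 of the 419 miRNAs tested, and miR-455-3p averaged 13.7 ± 3.24 CPM at rank 281. These levels rest on 174 to 404 reads per library for the 5p arm and 61 to 195 reads for the 3p arm. Between the lowest and the highest calf the 5p arm differed 2.20-fold and the 3p arm 2.65-fold. The coefficient of variation among calves of the same diet was 19.1% in HI and 17.7% in MOD for the 5p arm, where counting error alone would give 5.71% and 6.68%. For the 3p arm it was 19.1% and 21.4%, against 8.67% and 10.1% from counting.

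In the order of mean levels, the 5p arm stood between miR-137 at 32.3 ± 10.4 CPM and miR-488 at 31.3 ± 5.76 CPM (SD, n = 30 each), with miR-409a (32.6 ± 21.9 CPM) and miR-10182-5p (31.3 ± 13.7 CPM) next to them. The 3p arm stood between miR-134 at 13.7 ± 2.23 CPM and miR-376a at 13.6 ± 2.43 CPM, with miR-767 (14.3 ± 6.22 CPM) and miR-1247-5p (13.4 ± 6.37 CPM) next to them. These neighbours in rank lay within the spread of miR-455 between calves.

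The 5p arm was the more abundant product in 30 of the 30 calves. The ratio of 5p to 3p reads averaged 2.32 ± 0.397 (SD, n = 30) and ran from 1.63 to 3.43. Of 11708 reads on either arm, 8145 were 5p, or 69.6%. The share was lowest in HI replicate 15, at 61.9% (95% Wilson interval 57.6 to 66.0, counting error only), where the 3p arm reached its highest level of all, 20.3 CPM. It was highest in MOD replicate 6, at 77.4% (72.1 to 82.0), which had the lowest 3p level of all, 7.68 CPM. Both of these calves belong to the set of 9. The share varied with an SD of 3.51 percentage points, where counting error alone would give 2.39, and in 5 of 30 libraries the interval did not include 69.6%. Variation between calves and between library preparations cannot be told apart in this spread. The share averaged 69.7% ± 3.34 in HI calves and 69.3% ± 3.78 in MOD calves (SD, n = 15 each), and on the log2 scale the ratio was 1.21 ± 0.226 in HI and 1.19 ± 0.263 in MOD. The diets differed in this ratio by 0.02, far less than its spread between calves. No test was made of it, as it comes from the comparison for which the arms were picked.

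**Figure D1:**
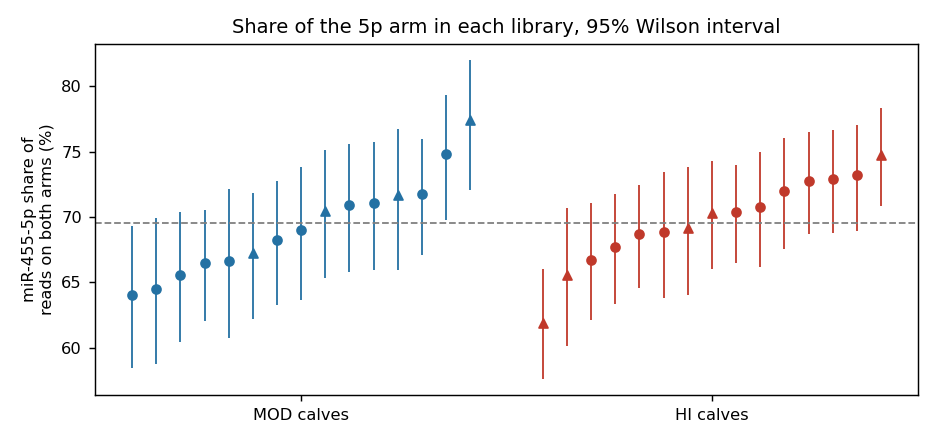
Share of the 5p arm among reads on both arms of miR-455 in each library, in percent, with its 95% Wilson interval (counting error only); calves are ordered by share within each diet, triangles mark the 9 highest label numbers, and the dashed line is the pooled share of 69.6%. Shares run from 61.9% to 77.4%, from 61.9% to 74.8% in HI and from 64.1% to 77.4% in MOD calves, so that each diet holds 1 end of the whole range.

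The arms varied together between calves, a property that played no part in choosing them. After the mean of each diet was removed, log2(CPM + 1) of the 5p and the 3p arm correlated with Pearson's r = 0.609 (permutation p = 0.00048) and Spearman's rho = 0.605 (permutation p = 0.00087, n = 30, two-sided, 100000 resamples within diet). Without the 2 calves farthest from the median 5p level, r was 0.603 (permutation p = 0.00084). Within HI calves r was 0.674 (permutation p = 0.00637, n = 15) and rho 0.779 (permutation p = 0.00127). Within MOD calves r was 0.546 (permutation p = 0.0357, n = 15), while rho was 0.454 (permutation p = 0.0934) and did not reach p < 0.05. Within the 21 calves with lower label numbers r was 0.674 (permutation p = 0.0008), while the remaining 9 gave r = 0.312 (p = 0.44 by an exact permutation test), so the relation was not detectable in the smaller set. With the means of both diet and label set removed it was 0.560 (permutation p = 0.00219). The points share the scaling of each library. With scaling by total reads in place of TMM r was 0.660, but both arms share that scaling too. The effect of a shared scaling on r was therefore not tested.

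**Figure D2:**
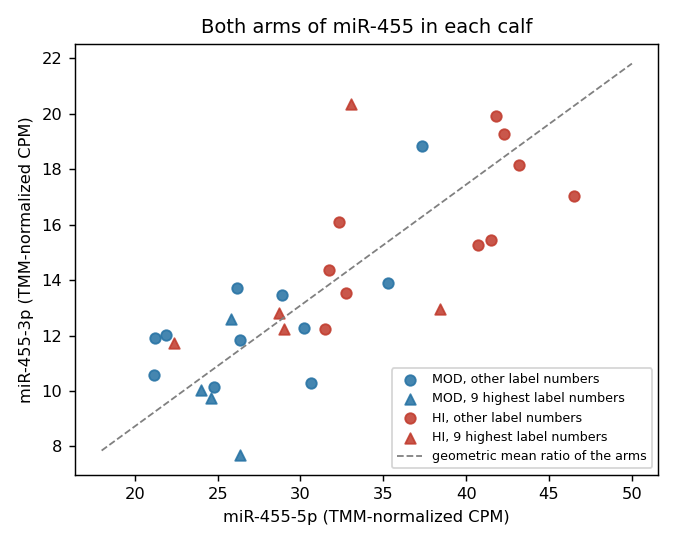
Level of miR-455-5p (x axis) against miR-455-3p (y axis) in each of 30 calves, both in TMM-normalized CPM, coloured by diet, with triangles for the 9 highest label numbers; the dashed line marks the geometric mean ratio of the arms. The arms rise together, MOD calves (blue) lie mostly at the lower left, and the HI triangle at 20.3 CPM and the MOD triangle at 7.68 CPM of the 3p arm lie farthest from the line.

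Other pairs of arms give a scale for this relation. Arms were paired by name only, and whether each pair comes from a single hairpin was not checked. A total of 31 pairs, miR-455 included, had both arms named with the suffixes 5p and 3p and tested. Their correlations between arms, computed in the same way, ran from -0.23 to 0.976 with a median of 0.432, and miR-455 was at rank 12. Among the 23 whose rarer arm averaged at least 10 CPM, the median was 0.609, the value of miR-455 itself. Its arms thus varied together as closely as those of the middle pair of that group. The highest values belonged to miR-1388 (0.976) and miR-10182 (0.965), the latter with a rarer arm of only 25.4 CPM. In the balance of its arms miR-455 was among the more even, with a mean log2 ratio of 1.19 against a median absolute value of 2.88, at rank 8 of 31 from the most even. The SD of the ratio between calves, 0.24, was at rank 13 from the smallest (median 0.29). Over all 418 other miRNAs tested, the 5p arm was the closest match to the 3p arm, and the 3p arm was the second closest to the 5p arm after miR-551b. The median r over these 418 was 0.02 for either arm. These ranks are descriptions across miRNAs of the same libraries, which are not independent of one another.

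**Figure D3:**
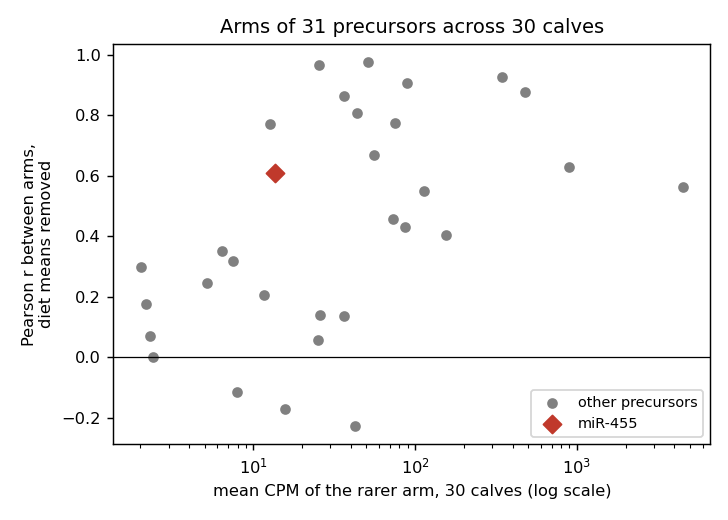
Correlation between the 5p and 3p arms (y axis, Pearson's r over 30 calves with diet means removed) against the mean CPM of the rarer arm (x axis, log scale) for 31 pairs of arms matched by name, with miR-455 as a red diamond. At r = 0.609 and a rarer arm of 13.7 CPM, miR-455 lies above the pairs whose rarer arm is less abundant, except miR-503 (0.773).

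Both arms were higher in HI calves, the contrast for which they were chosen. In HI calves miR-455-5p was at 22.4, 33.1 and 46.5 CPM (lowest, median and highest of 15), and in MOD calves at 21.2, 26.2 and 37.3 CPM. The ranges overlap, but 7 HI calves lay above the highest MOD calf, 3 MOD calves lay below the lowest HI calf, and 14 of 15 HI calves exceeded the MOD median. The means were 35.7 ± 6.82 CPM in HI and 27.0 ± 4.77 CPM in MOD (SD, n = 15 each), a ratio of 1.32. For miR-455-3p the values were 11.7, 15.3 and 20.3 CPM in HI and 7.68, 11.9 and 18.8 CPM in MOD. Here 3 HI calves lay above the highest MOD calf, 6 MOD calves below the lowest HI calf, and again 14 of 15 HI calves exceeded the MOD median. The means were 15.4 ± 2.94 CPM and 11.9 ± 2.56 CPM, a ratio of 1.29. In recovered reads, the medians were 319 in HI and 232 in MOD for the 5p arm, and 131 and 98 for the 3p arm.

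**Figure D4:**
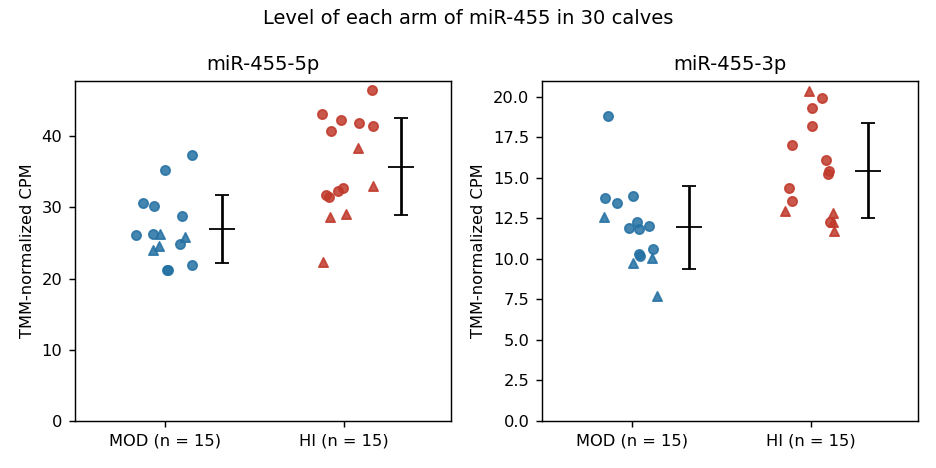
Level of miR-455-5p (left) and miR-455-3p (right) in TMM-normalized CPM in 15 MOD and 15 HI calves, 1 point per calf, triangles for the 9 highest label numbers, and mean ± SD beside the points; the y axes start at 0. The means are 27.0 and 35.7 CPM for the 5p arm and 11.9 and 15.4 CPM for the 3p arm, and the ranges of the diets overlap in both.

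On the log2(CPM + 1) scale, the difference between HI and MOD was 0.39 (standard error 0.09) for the 5p arm and 0.35 (standard error 0.10) for the 3p arm, under the fold change threshold of 1.5 used in the study. Both arms were among the 8 miRNAs called higher in HI calves by limma at a false discovery rate (FDR) under 0.1, which is 1.91% of the 419 tested, while 7 (1.67%) were called lower. As the arms were chosen for this, nothing is read from it. The difference of the 5p arm was 0.47 within the 21 calves with lower label numbers and 0.24 within the other 9, while that of the 3p arm was 0.33 and 0.44. The change between label sets was -0.23 (standard error 0.19, FDR = 0.848 from limma's interaction term) for the 5p arm and 0.10 (standard error 0.20, FDR = 0.889) for the 3p arm. No miRNA passed FDR < 0.1 in that interaction, with 21 at an unadjusted p under 0.05. With upper quartile normalization the differences were 0.29 and 0.26, and neither arm was called. The 3p arm was also not called within the 21 calves, nor was either arm within the 9.

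**Figure D5:**
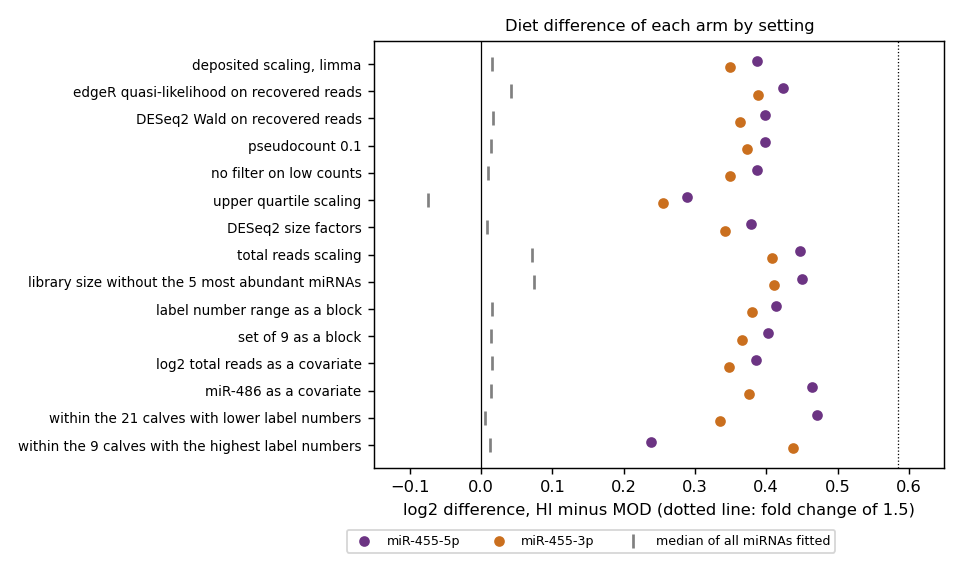
Log2 difference between HI and MOD calves (x axis) for miR-455-5p and miR-455-3p under each setting (y axis), with the median of all miRNAs fitted as a grey tick and a fold change of 1.5 as a dotted line. The 5p arm runs from 0.24 to 0.47 and the 3p arm from 0.26 to 0.44, all above 0 and below the dotted line.

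The calf labels, which were not used to choose the arms, gave ranges that could be tested. The set of 9 was named in an earlier analysis of these data, from the label order and other miRNAs. Its FDRs therefore do not test a grouping fixed beforehand, and they are given as a description. By their last 4 digits the labels fall into 4 ranges. The leading digit is left out of these ranges, whereas the set of 9 follows the full number, so the groupings are unlike. The study drew its calves from several farms, though the labels do not say which range belongs to which farm. Neither arm differed detectably between the ranges with diet in the model (FDR = 0.968 for the 5p arm and 0.914 for the 3p arm, limma F test), and 1 of the 419 miRNAs did (0.239%). Between label sets, however, both arms were lower in the 9 calves with the highest numbers. The 5p arm averaged 28.03 CPM there with an SD of 5.03 (n = 9), and 32.8 CPM with an SD of 7.74 in the others (n = 21), a log2 difference of -0.23 with diet in the model (standard error 0.10, FDR = 0.0884 from limma). The 3p arm was at 12.2 ± 3.51 CPM against 14.3 ± 2.99 CPM, a log2 difference of -0.25 (standard error 0.10, FDR = 0.0665 from limma). A total of 60 of the 419 miRNAs were called lower in this set, 14.3%, so a call in this comparison is common. The calls depended on the setting. With edgeR's quasi-likelihood test on recovered reads the FDR was 0.128 for the 5p and 0.121 for the 3p arm, and with each calf left out in turn limma called the 5p arm in 13 of 30 fits and the 3p arm in 26. The shift was seen in both diets, given here as values with no test within a diet. In HI calves the 5p arm averaged 30.3 ± 5.93 CPM in the set (SD, n = 5) and 38.4 ± 5.69 CPM outside it (SD, n = 10). In MOD calves it averaged 25.2 ± 1.08 CPM (SD, n = 4) and 27.6 ± 5.45 CPM (SD, n = 11). The 3p arm averaged 14.02 ± 3.56 CPM in the set and 16.1 ± 2.48 CPM outside it in HI calves, and 10.01 ± 2.01 and 12.6 ± 2.44 CPM in MOD calves. The ratio of the arms did not differ detectably between the sets, with a log2 difference of 0.04 (standard error 0.10, two-sided permutation test within diet, p = 0.717, n = 30).

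miRNAs with related roles were taken from lists of known functions, and each was compared between the diets with limma over the 419 miRNAs tested, of which 15 (3.58%) were called in either direction and whose median log2 difference was 0.02. miR-140, the other miRNA characteristic of cartilage, was not called. It averaged 613 ± 283 CPM under the HI diet and 557 ± 120 CPM under MOD (SD over 15 calves). Its log2 difference was 0.07 (standard error 0.14, FDR = 0.934 from limma). The higher HI mean was not matched by the medians, which were 505 CPM for HI calves against 510 CPM for MOD calves. The highest HI calf reached 1479 CPM, while the highest MOD calf reached 868 CPM. The miR-29 family, which represses many collagen mRNAs, had 4 members tested, of which 0 were higher and 1 was lower in HI calves, with a median of -0.11. That member, miR-29a, fell by 0.14 on the log2 scale (standard error 0.04, FDR = 0.0365 from limma), from 2914 ± 208 CPM in MOD to 2638 ± 143 CPM in HI. The call depended on the scaling, since the difference was -0.08 with FDR = 0.411 on total reads and -0.24 with FDR = 0.00404 under upper quartile normalization. For miR-29b, miR-29c and miR-29d-3p the log2 differences were -0.07, -0.08 and -0.15, none of them called, although miR-29c was called lower under upper quartile normalization (-0.18, FDR = 0.0819 from limma).

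Of the brown fat miRNAs 3 of the 5 in the table were tested and 0 were called, with log2 differences of 0.21 for miR-193b, 0.14 for miR-365-3p and -0.17 for miR-182, and a median of 0.14. Of the 5 miRNAs known to respond to TGF-beta, 0 were called, with differences from -0.07 (miR-181a) to 0.12 (miR-143) and a median of 0.03. miR-210, the miRNA most closely tied to hypoxia, averaged 109 ± 12.9 CPM under HI and 120.3 ± 11.5 CPM under MOD (log2 difference -0.15, FDR = 0.224 from limma), and it was called only under upper quartile normalization (FDR = 0.0298) among the 5 scalings compared. Under that normalization miR-182 was also called lower in HI calves (log2 difference -0.27, FDR = 0.0854 from limma).

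miRNAs known from particular cell types were examined in the same way. Of the 4 fibroblast miRNAs (miR-199a-3p, miR-199a-5p, miR-199b and miR-214) 0 were called between the diets, although the log2 difference of each was above 0, from 0.15 for miR-214 to 0.28 for miR-199a-3p, with a median of 0.20. Their summed level ran from 516 to 1268 CPM in HI calves (median 669) and from 444 to 796 CPM in MOD calves (median 594). The endothelial pair miR-126-3p and miR-126-5p had differences of -0.02 and -0.04. Of the red blood cell miRNAs, the study itself listed miR-451 and miR-144 as differentially expressed by edgeR, both higher in HI calves. Adding 1 to the level understates the difference of a low miRNA such as miR-144, with means of 5.44 (HI) and 3.43 CPM (MOD). With limma on log2(CPM + 1), miR-451 (0.55, FDR = 0.190) and miR-144 (0.46, FDR = 0.115) were not called. miR-486, the most abundant of these red blood cell miRNAs, was at -0.27 (FDR = 0.274) and was not called either. These calls moved with the scaling, since miR-144 was called higher in HI calves on total reads (0.51, FDR = 0.0960 from limma) and without the 5 most abundant miRNAs in the library size (0.52, FDR = 0.0911), and miR-486 lower under upper quartile normalization (-0.37, FDR = 0.0880). Their sum ran from 10578 to 24489 CPM in HI and from 15557 to 27422 CPM in MOD calves. Of the 7 endocrine miRNAs 0 were called, with a median of -0.01, while under upper quartile normalization miR-200c was called lower in HI calves (-0.21, FDR = 0.0619 from limma). In the comparison of label sets, 4 of these 7 were called higher and 1 lower in the set of 9, where 11.7% of all 419 miRNAs were called higher and 14.3% lower. Among them miR-375 was higher by 0.37 (standard error 0.07, FDR = 0.000463 from limma) and miR-429 by 0.35 (standard error 0.06, FDR = 0.000141), and both were called under each of the 5 scalings. The other calls were not kept under every scaling. Under upper quartile normalization miR-7 (FDR = 0.172 from limma) and miR-200a (0.349) lost theirs. The member called lower, miR-200c, lost its call on total reads (0.152) and without the 5 most abundant miRNAs in the library size (0.173). In that comparison 26% of miRNAs were called in either direction, and 0 of the 4 fibroblast miRNAs were. Of the miR-29 family, miR-29d-3p was higher by 0.41 (FDR = 0.000396 from limma) and miR-29c lower, at -0.16 (FDR = 0.00312), in the set of 9. As that set was named partly from miRNAs of these data, the FDRs between label sets are descriptions. The part of cell make-up in the differences of miR-455 was not tested.

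The relation of miR-455 to such miRNAs between calves of the same diet was examined for 9 partners and for read depth, a family of 10 relations, using the mean of both arms on the log2(CPM + 1) scale. None passed after Benjamini-Hochberg adjustment (n = 30, two-sided permutation within diet, lowest adjusted p = 0.162 for r and 0.148 for rho). Before adjustment, p was under 0.05 for miR-375 and miR-199a-3p by r, and for miR-375 and miR-143 by rho. For miR-375, the dominant miRNA of endocrine cells, r was -0.43 (permutation p = 0.0233) and rho -0.40 (permutation p = 0.0362), but r was -0.04 within the 21 calves with lower label numbers, -0.44 within the other 9, and -0.13 with the set means removed. For the fibroblast miRNA miR-199a-3p r was 0.402 (permutation p = 0.0323) and rho 0.361 (permutation p = 0.0565), with r at 0.447 within the 21, 0.591 within the 9 and 0.307 without the 2 calves farthest from its median. For miR-140 r was 0.348 (permutation p = 0.069), for miR-143 of smooth muscle 0.354 (permutation p = 0.0621, with rho at 0.426 and permutation p = 0.019), for miR-486 0.268 (permutation p = 0.167) and for log2 total reads -0.33 (permutation p = 0.0828). The values for miR-126-3p (0.0779), miR-29a (-0.19), miR-193b (0.179) and miR-365-3p (0.0461) were smaller. With the set means removed, r was -0.43 for miR-29a (permutation p = 0.022, adjusted p = 0.110). For miR-199a-3p it was then 0.484 (permutation p = 0.0105, adjusted p = 0.105). Several partners had opposite signs in the label sets, with r of 0.579 within the 21 and -0.44 within the 9 for miR-126-3p, -0.60 and 0.122 for miR-29a, 0.431 and -0.47 for miR-486, 0.111 and -0.27 for miR-193b, and 0.246 and -0.27 for miR-365-3p. None of the values within a label set was tested, nor were the differences between sets, and 9 calves are few for a correlation.

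The 5 miRNAs most like miR-455 across the 30 calves, by Pearson's r to the mean of both arms with diet means removed, were miR-551b (0.661), miR-505 (0.608), miR-1251 (0.543), miR-342 (0.534) and miR-155 (0.531). They were picked as the highest of 417, so no p is given. None of the 5 was called between the diets. miR-551b, the closest, averaged 13.1 ± 4.09 CPM under HI and 13.2 ± 4.17 CPM under MOD (SD over 15 calves), a log2 difference of -0.01 with a standard error of 0.15. Its r was 0.558 within the 21 calves with lower label numbers, 0.750 within the other 9, 0.636 without the 2 calves farthest from its median and 0.744 on total reads. miR-155, an immune cell miRNA, averaged 68.02 ± 22.5 CPM under HI and 62.3 ± 17.99 CPM under MOD, and its r was 0.692 within HI and 0.328 within MOD calves. For miR-505, miR-1251 and miR-342 r fell to 0.379, 0.253 and 0.243 within the 21 calves, against 0.626, 0.716 and 0.719 within the 9. Whether these values differ between the label sets was not tested.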

How the data were processed

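Small RNA libraries were sequenced by the authors. Per the methods of the study, adapters were removed with Cutadapt, reads outside a length window and reads of other short RNAs were dropped, and known bovine miRNAs were quantified with miRDeep2 against ARS-UCD1.2. For each mature miRNA and calf the authors deposited a normalized signal, namely CPM scaled by TMM, with no pooling. Whole reads were worked out from the spacing of the lowest values: of the values under 50 reads, at least 94.6% per library were whole within 0.02 reads, and every value of both arms was. Totals were recovered in 20 of 20 simulated libraries, but these held whole reads only, unlike the deposited ones. No 2 libraries were copies (435 pairs, chi-square per degree of freedom at least 85.5).

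log2(CPM + 1) was fitted with limma 3.58.1 (R 4.3.3, trend) for the 419 miRNAs past edgeR's filterByExpr, which held 99.99% of reads, with Benjamini-Hochberg adjustment over all of them at FDR < 0.1. Adding 1 understates changes of low miRNAs. In simulated data with 200 of 419 miRNAs changed 1.5-fold, 193 were called in the right direction for diet (11 unchanged ones called) and 183 for label set (7). In the data only 15 were called by diet, and the arms differed by less than 1.5-fold. The simulation may therefore overstate how many real changes would be called, and a miRNA not called may still differ. Recovered reads were also fitted with edgeR 4.0.16 and DESeq2 1.42.0. The members and lists were chosen with earlier results of these data known. Named miRNAs are both arms, list members, partners, the 5 most alike, and the neighbours in level; others were chosen after their values were seen. miR-203 of the brown fat list was not analysed here. Each calf is a separate animal.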

Additional observations from a re-analysis of the deposited data

How the results depend on the processing

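The study blocked its calves by age, bodyweight, sire and farm before assigning the diets. No label gives these blocks or pairs an HI calf with a MOD calf, so no paired analysis was possible. The log2 difference between HI and MOD kept its direction under all 14 alternatives, from 0.24 to 0.47 for miR-455-5p and from 0.26 to 0.44 for miR-455-3p. With each calf left out it ran from 0.36 to 0.43 and from 0.31 to 0.39. The arms were chosen for this direction in these same calves, so its persistence is a description and no independent support. The number of miRNAs called by diet was 15, and it was 24 with DESeq2, 29 with upper quartile normalization, 0 with limma within the 9 calves with the highest label numbers (fewer samples, 26 at an unadjusted p under 0.05), and 14 to 21 with each calf left out. The 8 called higher in HI calves became 3 under upper quartile normalization, 16 on total reads and 19 when the 5 most abundant miRNAs were left out of library sizes. The median log2 difference over the 419 miRNAs moved too, from 0.016 to -0.075, 0.071 and 0.074 in that order. A call or sign that changes between scalings is therefore not a trait of that miRNA alone. The difference between label sets lost its call with edgeR's quasi-likelihood test (-0.22 for the 5p and -0.24 for the 3p arm) and on total reads (-0.22 and -0.24), and also without the 5 most abundant miRNAs in the library size (-0.21 and -0.23, FDR = 0.183 and 0.129 from limma), a scaling added, like DESeq2 size factors, after seeing the data. With DESeq2 size factors the 5p arm lost it (FDR = 0.113) and the 3p arm did not (0.0786), and under upper quartile normalization neither did (0.0597 and 0.0440). The cause was not tested, and with each calf left out it ran from -0.26 to -0.17 and from -0.32 to -0.20. The 5p call was lost without any 1 of 17 calves, HI replicates 1, 2, 6, 7, 9, 10, 12, 13, 14 and 15 and MOD replicates 1, 2, 3, 8, 13, 14 and 15 (limma FDR up to 0.206, without HI replicate 14), and the 3p call without HI replicate 12 or 14 or MOD replicate 6 or 8 (up to 0.159, without MOD replicate 6). The correlation between arms was 0.312 within the 9 calves and ran from 0.534 to 0.661 with each calf left out, and removing the label set means was chosen after seeing the data. The log2 ratio of the arms between label sets, 0.04, turned to -0.13 within HI calves, -0.0051 without HI replicate 11 and -0.042 without MOD replicate 6, was 0.23 within MOD calves, and ran up to 0.10 with each calf left out. The correlation with miR-126-3p turned to -0.0049 without the 2 farthest calves, and that with miR-29a to 0.114 on total reads. With 61 to 195 reads on the 3p arm, counting error limits its values and the ratio more than those of the 5p arm. The scalings of the list members were also added after seeing the data. Some miRNAs not called by diet changed sign, still not called. On total reads, and without the 5 most abundant miRNAs, the log2 differences were 0.0472 and 0.0503 for miR-126-3p, 0.0192 and 0.0223 for miR-126-5p, 0.0585 and 0.0615 for miR-141, 0.0585 and 0.0615 for miR-181b, and 0.0540 and 0.0570 for miR-200a. Under upper quartile normalization they were -0.0335 for miR-140, -0.0600 for miR-145, -0.0807 for miR-200b, -0.0707 for miR-21-5p and -0.0073 for miR-429.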

Other observations

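The miRNAs that ran most strongly against miR-455 across calves were chosen after their values were seen and are given with no p. These were miR-216a, miR-216b and miR-665, with Pearson's r to the mean of both arms of -0.73, -0.72 and -0.68 over the 30 calves with diet means removed, and miR-217 at -0.67. Between calves miR-216a varied from 1.79 to 183 CPM (median 36.6), miR-216b from 0.358 to 42.7 CPM (median 9.14) and miR-217 from 0.954 to 95.1 CPM (median 18.3), a far wider range than that of miR-455. miR-216a, miR-216b and miR-217 are best known from the exocrine pancreas. None of the 4 was called between the diets, with log2 differences of 0.14 for miR-216a, 0.04 for miR-216b, 0.21 for miR-217 and 0.05 for miR-665. For miR-216a r was -0.74 within HI calves and -0.73 within MOD calves. It was -0.80 within the 21 calves with lower label numbers and -0.23 within the other 9, and the difference between these values was not tested. On total reads in place of TMM it was -0.59, and without the 2 calves farthest from the median of miR-216a it was -0.62. For miR-665 r was -0.66 within the 21 calves, -0.73 within the 9 and -0.71 on total reads. The points share libraries and scaling, and what links these miRNAs to miR-455 was not tested.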
